A study of Mus musculus with 3 samples.

Results

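The transcripts of 10 genes that encode heterogeneous nuclear ribonucleoproteins (hnRNPs) were followed as targets of splicing in the mouse hippocampus. The genes were Hnrnpa2b1, Hnrnpa1, Hnrnpc, Hnrnpd, Hnrnpdl, Hnrnph1, Hnrnph3, Hnrnpk, Hnrnpr and Hnrnpm, and every alternative splicing event listed under one of these symbols was taken. This gave 26 of the 8727 events listed for 4860 genes. The members were 18 skipped exons, 5 alternative 3′ splice sites, 2 alternative 5′ splice sites and 1 retained intron. RNA came from the hippocampus of 3 C57BL/6J mice of wild type genotype aged 10 weeks, 1 mouse for each group. All 3 mice had received an adeno-associated virus (AAV9) that expressed a CUG repeat in the 3′-UTR of an Egfp mRNA, injected into the CA1 region on both sides. The groups were 10 repeats with vehicle (CUG10 + vehicle), 300 repeats with vehicle (CUG300 + vehicle) and 300 repeats with CWG-cPIP (CUG300 + CWG-cPIP). CWG-cPIP is a cyclic pyrrole-imidazole polyamide that binds CAG and CTG repeat DNA, and it was given together with the virus. There was no uninjected mouse, the promoter of the vector is not given in the sources used here, and the repeat was an added transgene rather than an expansion in a gene of the mouse.

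hnRNPs bind nascent RNA, and most of them repress or activate the use of nearby exons. Many also act on their own pre-mRNA, so that a change in the amount or activity of one family member can appear as a change in the splicing of its own or a related transcript. Expanded CUG RNA is known from myotonic dystrophy type 1, where it binds MBNL proteins and withdraws them from their splicing targets. hnRNP A1 and hnRNP H have been studied as splicing regulators in that disease.

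Where 3 values stand in a row they are in library order, which is CUG10 + vehicle first, then CUG300 + vehicle, then CUG300 + CWG-cPIP. The measure was PSI, the share of transcripts that hold the alternative region, from 0 (always skipped) to 1 (always included). It was computed from inclusion and skipping reads after each was divided by the length of its form, and a PSI described in full is given with its 95% Clopper-Pearson interval. Other member events are given by their range over the libraries. The 7659 events with counts in all 3 libraries held 560672 to 609546 counts per library. Members were deeper than most events, with a median of 67.5 counts in CUG10 + vehicle, 61 in CUG300 + vehicle and 69 in CUG300 + CWG-cPIP, against 22, 13 and 24 over all events. Depth allowed 22 of the 26 member events to reach 20 counts in every library. Since each group was 1 mouse, there is no replicate check of any difference, and an exact test here tells 2 libraries apart and not 2 conditions. Reads carried no molecular identifiers, so intervals and p-values cover counting error only.

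The library of the CUG300 + vehicle mouse stood apart in its cell type markers. Reads over events of Ttr, the transthyretin gene of the choroid plexus, were at 171 event RPM (reads per 1000000 event reads of the library) in CUG10 + vehicle, 67703 in CUG300 + vehicle and 112 in CUG300 + CWG-cPIP. Ttr is 1 of 3 measured markers in a list for endothelium and choroid plexus. Of the others, Enpp2 was also highest in CUG300 + vehicle (610, 3581 and 605 event RPM in library order). Pecam1 was lowest there (44.3, 28.2 and 51.7). The summed level of 6 microglial and immune markers was 2841, 19835 and 4883 event RPM in the same order, and 6 of 6 were highest in CUG300 + vehicle. The summed level of 7 neuronal markers was 12132, 5640 and 11379 event RPM, with 7 of 7 lower in CUG300 + vehicle than in CUG10 + vehicle and no marker at 0. The part of this difference in the results on hnRNP transcripts was not tested. In tissue RNA, fewer cells of a type and less RNA per cell cannot be told apart.

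Across the family, the 120-nt exon of Hnrnpa2b1 was the member with the clearest difference. Its PSI was lower in the CUG300 + vehicle library than in both others, while for most other members the interval of the difference held 0. In CUG300 + vehicle against CUG10 + vehicle, 2 of the 21 members with at least 20 counts in both libraries differed by more than 0.15 in PSI, 1 higher and 1 lower, which is 9.52% beside 9.34% of all such events. An adjusted exact p under 0.05 together with that size was met by 1 of 24 listed members and by 0.160% of all listed events. In CUG300 + CWG-cPIP against CUG300 + vehicle, 4 of 22 members passed by size (18.2%, 3 higher and 1 lower) beside 11.3% of all events, and 1 of 26 passed the exact test beside 0.389%. Between CUG300 + CWG-cPIP and CUG10 + vehicle, 2 of 24 members passed by size (8.33%, both higher with CWG-cPIP) beside 8.56%, and 0 of 26 passed the exact test beside 0.115%. An unadjusted exact p under 0.05 was found for 3, 2 and 1 listed members in these 3 comparisons, which is 12.5%, 7.69% and 3.85% beside 2.75%, 3.58% and 2.25% of all listed events; members were also deeper than most events. The family as a whole was therefore called by size about as often as all events in the comparisons with CUG10 + vehicle. Each 2 of the 3 comparisons share a library. The first and second share the CUG300 + vehicle library, so a value that is low in that library appears as lower in one and higher in the other.

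**Figure D1:**
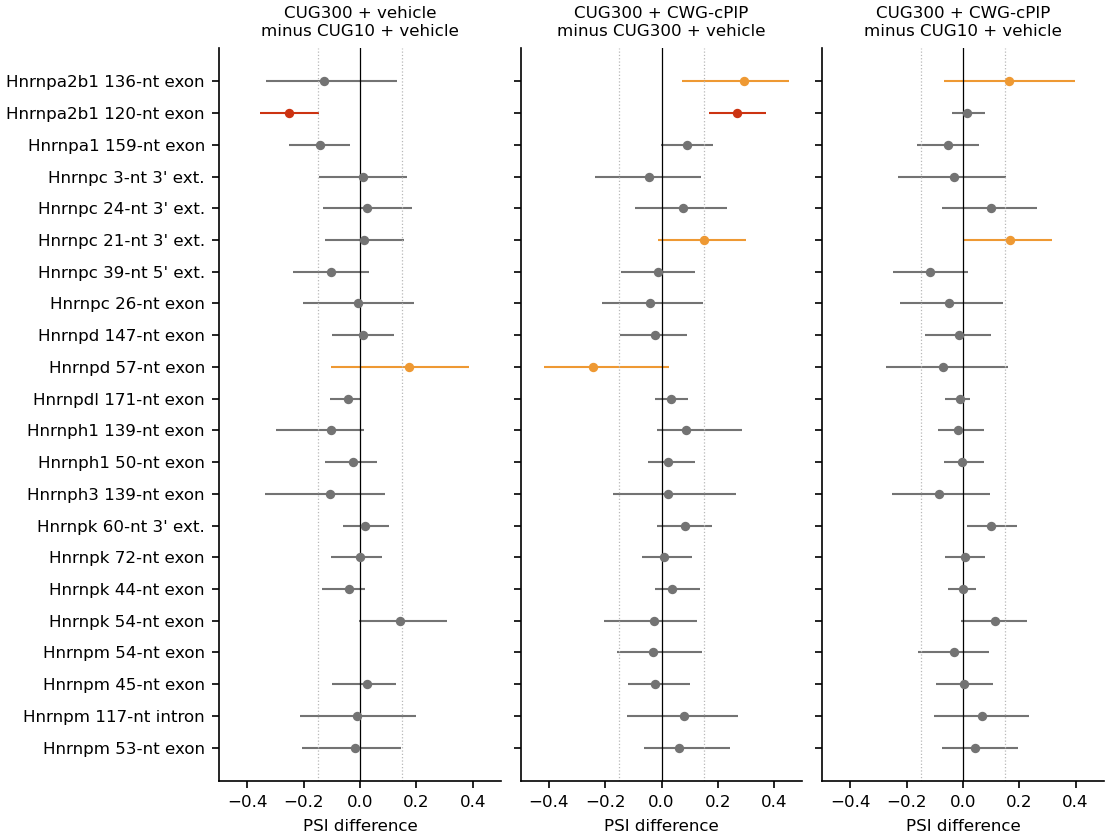
PSI differences of the 22 hnRNP events with at least 20 counts in every library, for the 3 pairs of libraries (x axis, first minus second library, points with 95% Newcombe intervals). Red marks events called by the adjusted exact test, orange those called by size alone, and dotted lines mark 0.15; the Hnrnpa2b1 120-nt exon is the red point at -0.252 and at 0.268.

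The exon with the clearest difference is printed first, and 2 pairs of exons that are related to each other in sequence follow so that their splicing can be compared. The Hnrnpa2b1 exon lies in the glycine-rich part of hnRNP A2/B1, the first pair in hnRNP H1 and H3, and the second in the tyrosine- and glycine-rich tail of hnRNP D and hnRNP DL. Sequences are read from the GENCODE M21 transcripts on mm10, 5′ to 3′ on the transcript strand, and in the pairs capitals mark bases that differ from the partner exon or have no counterpart in it.
Hnrnpa2b1 120-nt exon: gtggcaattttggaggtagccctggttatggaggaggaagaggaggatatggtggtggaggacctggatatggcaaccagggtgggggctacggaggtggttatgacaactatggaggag
Hnrnph1 139-nt exon: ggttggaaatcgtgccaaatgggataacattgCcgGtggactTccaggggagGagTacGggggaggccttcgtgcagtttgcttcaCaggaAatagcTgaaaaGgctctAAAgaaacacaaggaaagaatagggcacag
Hnrnph3 139-nt exon: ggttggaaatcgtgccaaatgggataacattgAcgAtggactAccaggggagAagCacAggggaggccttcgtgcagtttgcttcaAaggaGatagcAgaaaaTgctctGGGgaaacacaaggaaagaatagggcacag
Hnrnpdl 171-nt exon: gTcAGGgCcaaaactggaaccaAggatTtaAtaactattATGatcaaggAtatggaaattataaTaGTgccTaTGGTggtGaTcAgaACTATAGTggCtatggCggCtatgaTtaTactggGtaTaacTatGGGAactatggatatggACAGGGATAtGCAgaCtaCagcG
Hnrnpd 147-nt exon: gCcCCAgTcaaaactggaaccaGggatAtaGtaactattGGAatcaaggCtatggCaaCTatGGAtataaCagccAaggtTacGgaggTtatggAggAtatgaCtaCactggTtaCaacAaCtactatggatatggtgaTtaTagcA
The Hnrnph1 and Hnrnph3 exons were identical at 126 of 139 bases (90.6%) without a gap. The Hnrnpd and Hnrnpdl exons were identical at 113 of 140 aligned bases (80.7%, with 38 gap positions). Reads from such related stretches, and from processed pseudogenes of Hnrnpa1, Hnrnpa2b1 and other members, could be placed on the wrong copy, and how the authors treated them is not given in the sources used here.

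Hnrnpa2b1 encodes hnRNP A2/B1, which binds and sorts RNA in neurons and represses many exons. Its 120-nt exon lies at chr6:51464428-51464547 on the minus strand (ENSMUSG00000004980.16), is coding over its whole length in 3 protein-coding transcripts, and keeps the reading frame when skipped. PSI was 0.957 (0.896 to 0.988, 239 counts) in CUG10 + vehicle, 0.706 (0.601 to 0.800, 153 counts) in CUG300 + vehicle and 0.974 (0.926 to 0.994, 293 counts) in CUG300 + CWG-cPIP. The CUG300 + vehicle library was low and its interval overlapped neither of the others. From CUG10 + vehicle to CUG300 + vehicle PSI fell by 0.252 (95% interval of the difference -0.357 to -0.147, adjusted exact p = 0.00333). It was 0.268 higher in CUG300 + CWG-cPIP than in CUG300 + vehicle (0.170 to 0.372, adjusted exact p = 7.7e-05). The libraries with CWG-cPIP and with 10 repeats differed by 0.016 (-0.038 to 0.080, adjusted exact p = 1).

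Both forms of this exon differed in level. Skipping was read 4, 21 and 3 times in library order, which is 6.56, 37.0 and 5.35 event RPM. Inclusion was read 235, 132 and 290 times, or 386, 233 and 517 event RPM. The skipped form was thus higher in CUG300 + vehicle in event RPM as well as in share, on a base of 21 reads. Without the division by form length the 2 differences of over 0.15 became -0.121 and 0.127, below the size threshold, since the inclusion form is 194 nt and the skipping form 74 nt long, and the adjusted exact p-values, which rest on the counts, stay as given.

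The other listed exon of Hnrnpa2b1 is 136 nt long, at chr6:51461920-51462055 on the minus strand, and lies in the 3′ UTR of the transcripts that hold it. PSI was 0.744 (0.508 to 0.919, 37 counts), 0.615 (0.464 to 0.761, 72 counts) and 0.908 (0.723 to 0.988, 58 counts) across the libraries. It was again lowest in CUG300 + vehicle, but the intervals of all 3 libraries overlapped. The difference between CUG300 + CWG-cPIP and CUG300 + vehicle was 0.293 (0.071 to 0.453) and passed the size threshold, with an unadjusted exact p of 0.0117 and an adjusted exact p of 0.974. Against CUG10 + vehicle, CUG300 + CWG-cPIP was 0.164 higher (-0.068 to 0.399, adjusted exact p = 1). Skipping of this exon was read 4, 13 and 2 times, in the same order of libraries. In the annotation, 1 protein-coding transcript of Hnrnpa2b1 lacks both the 120-nt and the 136-nt exon.

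**Figure D2:**
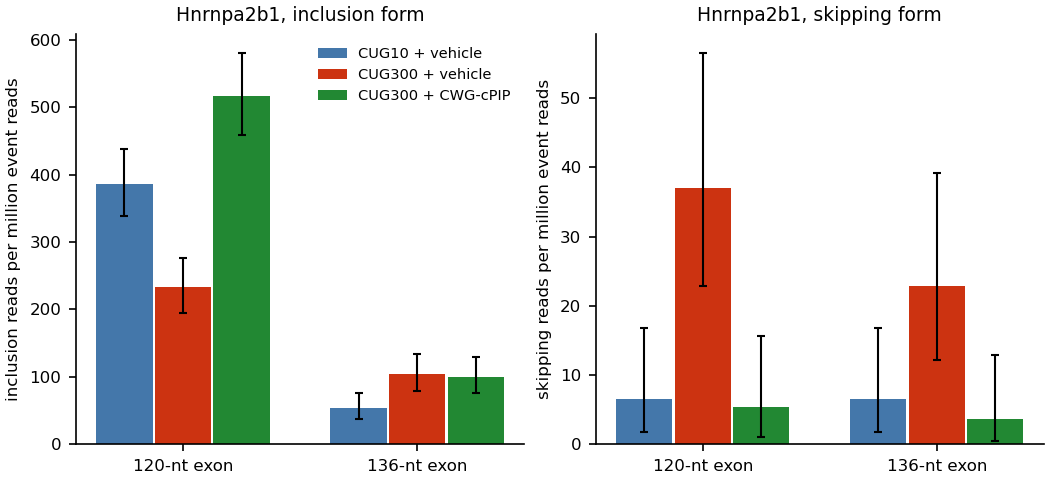
Event RPM (y axis) of reads that support inclusion (left) and skipping (right) of the 120-nt and 136-nt exons of Hnrnpa2b1 in each library, with exact Poisson 95% intervals. Skipping of the 120-nt exon stood at 37.0 in CUG300 + vehicle against 6.56 and 5.35 in the other libraries.

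Hnrnpa1 encodes hnRNP A1, the paralog of hnRNP A2/B1 and a classical repressor of exon inclusion. Its 159-nt exon (ENSMUSG00000046434.16, chromosome 15) is coding and adds a stretch to the glycine-rich domain of the longer form of the protein. PSI was 0.299 (0.215 to 0.400, 89 counts), 0.155 (0.098 to 0.233, 71 counts) and 0.247 (0.184 to 0.323, 120 counts) in the 3 libraries. The exon was thus mostly skipped in each library, whereas the 120-nt exon of Hnrnpa2b1 was mostly included. Both exons had their lowest PSI in CUG300 + vehicle. For Hnrnpa1 the difference from CUG10 + vehicle was -0.144 (-0.252 to -0.036), under the size threshold, with an unadjusted exact p of 0.011 and an adjusted exact p of 1. CUG300 + CWG-cPIP lay 0.092 above CUG300 + vehicle (-0.003 to 0.181, unadjusted exact p = 0.0712) and 0.052 below CUG10 + vehicle (difference -0.052, -0.163 to 0.056).

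Hnrnph1 and Hnrnph3 encode members of the hnRNP H group, which bind runs of G. Each has a 139-nt coding exon whose skipping shifts the reading frame, at chr11:50381459-50381597 on the plus strand in Hnrnph1 and at chr10:63018760-63018898 on the minus strand in Hnrnph3. The Hnrnph1 exon had a PSI of 1.000 (0.912 to 1.000, 112 counts), 0.897 (0.695 to 0.987, 52 counts) and 0.983 (0.913 to 1.000, 171 counts) in library order. The Hnrnph3 exon had 0.923 (0.762 to 0.990, 71 counts), 0.815 (0.583 to 0.957, 41 counts) and 0.837 (0.678 to 0.942, 79 counts). Skipping rested on 0, 2 and 1 reads in Hnrnph1 and on 2, 3 and 5 reads in Hnrnph3, so the lower value in CUG300 + vehicle could not be told from counting error in either gene. The differences from CUG10 + vehicle were -0.103 (-0.300 to 0.013, unadjusted exact p = 0.0992) and -0.108 (-0.339 to 0.089, unadjusted exact p = 0.354). With 0 taken as at most 3 reads, 0 skipping reads of 112 allow a share of reads of up to 2.68%. That share is not divided by form length, and the PSI interval of the Hnrnph1 exon in CUG10 + vehicle reaches down to 0.912. The deepest event of Hnrnph1, a 50-nt exon, had PSI values of 0.957 (0.882 to 0.991, 116 counts), 0.931 (0.835 to 0.981, 94 counts) and 0.953 (0.894 to 0.984, 174 counts).

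Hnrnpd and Hnrnpdl are neighbours on chromosome 5 and encode related proteins that bind AU-rich elements in mRNA and affect its decay. The 171-nt exon of Hnrnpdl, at chr5:100036481-100036651 on the minus strand, was the deepest member event. Its PSI was 1.000 (0.967 to 1.000, 361 counts), 0.956 (0.894 to 0.988, 293 counts) and 0.988 (0.938 to 1.000, 284 counts) across the libraries. Skipping was read 0, 4 and 1 times. With 0 taken as at most 3 reads, 0 of 361 allows a share of reads of up to 0.831%. That share is not divided by form length, and the PSI interval in CUG10 + vehicle reaches down to 0.967. The difference of -0.044 between CUG300 + vehicle and CUG10 + vehicle (-0.106 to -0.001) had an unadjusted exact p of 0.0398 and an adjusted exact p of 1.

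The related 147-nt exon of Hnrnpd, at chr5:99963731-99963877 on the minus strand, differed little between libraries. Its PSI was 0.778 (0.691 to 0.853, 241 counts), 0.789 (0.700 to 0.864, 231 counts) and 0.764 (0.662 to 0.850, 181 counts), and the difference between CUG300 + vehicle and CUG10 + vehicle was 0.011 (-0.100 to 0.120). The interval of that difference leaves out a shift of the size seen in the Hnrnpa2b1 exon. A second exon of Hnrnpd, 57 nt long at chr5:99976534-99976590, had PSI values of 0.693 (0.491 to 0.860, 35 counts), 0.867 (0.616 to 0.983, 25 counts) and 0.623 (0.469 to 0.767, 55 counts). It was highest in CUG300 + vehicle, opposite to the Hnrnpa2b1 exons, and passed the size threshold in both comparisons with that library (0.173 with an interval of -0.103 to 0.387, and -0.243 with -0.418 to 0.026). Both intervals held 0, and both adjusted exact p-values were 1. Both alternative exons of Hnrnpd are known to be used in different combinations, which gives the isoforms of hnRNP D.

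**Figure D3:**
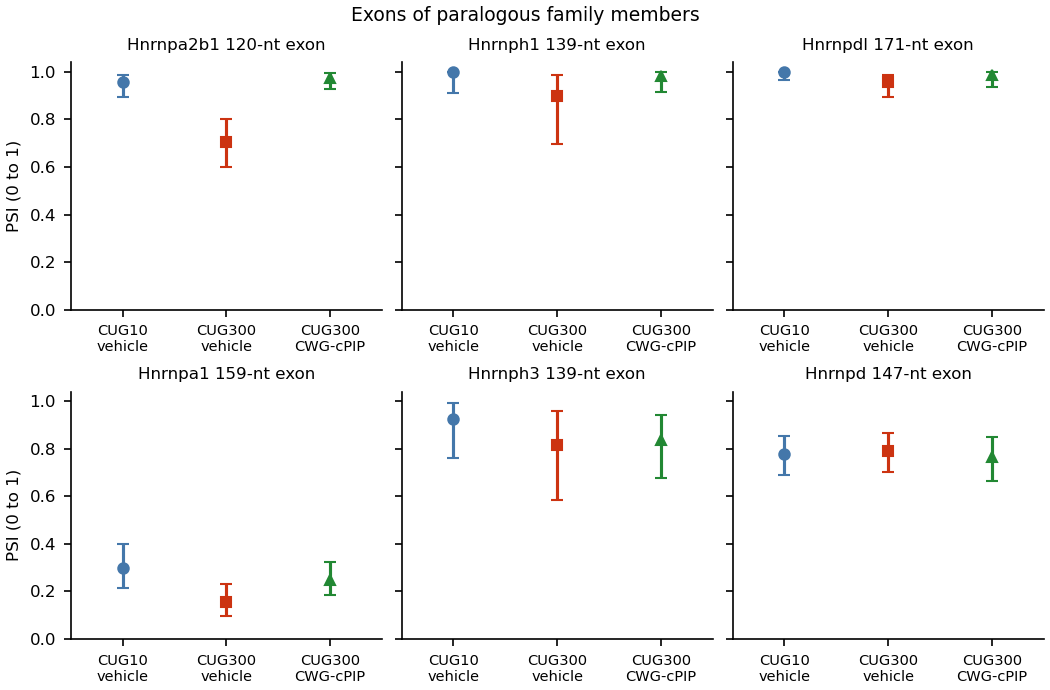
PSI (y axis, 0 to 1) of exons of 3 pairs of paralogous genes, 1 pair in each column, in the 3 libraries with 95% Clopper-Pearson intervals. All but the Hnrnpd exon had their lowest PSI in CUG300 + vehicle, and the Hnrnpa2b1 exon was the one with an interval there (0.601 to 0.800) apart from both other libraries.

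Hnrnpc encodes hnRNP C, which packages nascent transcripts and keeps splicing factors off cryptic exons. A 39-nt stretch at chr14:52081789-52081827 on the minus strand is added by a downstream 5′ splice site and makes the difference between the C1 and C2 proteins. Its PSI was 0.540 (0.439 to 0.641, 109 counts), 0.435 (0.337 to 0.540, 98 counts) and 0.423 (0.330 to 0.523, 106 counts) in the 3 libraries. Here both mice with 300 repeats had the lower value, with or without CWG-cPIP. The differences from CUG10 + vehicle were -0.105 (-0.237 to 0.033, unadjusted exact p = 0.157) and -0.117 (-0.247 to 0.018, unadjusted exact p = 0.0982), and both intervals held 0.

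Further downstream in Hnrnpc, 3 nested 3′ splice sites add 21, 24 or 3 nt to a coding exon, and each of these lengths keeps the frame. The 24-nt stretch at chr14:52075413-52075436 on the minus strand is printed because it holds all 3 sites, with the 3-nt step between the last 2 sites in capitals.
Hnrnpc 24-nt stretch: acttgtccttctcatccccagTAG
The 21-nt event had PSI values of 0.466 (0.359 to 0.577, 87 counts), 0.481 (0.382 to 0.583, 103 counts) and 0.633 (0.495 to 0.758, 61 counts) in library order. The mouse with CWG-cPIP was highest, by 0.151 over CUG300 + vehicle (-0.011 to 0.299) and by 0.166 over CUG10 + vehicle (-0.001 to 0.318). Both passed the size threshold narrowly, both intervals held 0, and both adjusted exact p-values were 1. The 24-nt event, which shares inclusion reads with it, ran from 0.622 to 0.723 and the 3-nt event from 0.619 to 0.663. A 26-nt exon in the 5′ UTR ran from 0.661 to 0.709.

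Hnrnpk encodes hnRNP K, a protein with KH domains that binds C-rich RNA. Its 72-nt coding exon at chr13:58396188-58396259 on the minus strand had nearly the same PSI throughout, 0.917 (0.856 to 0.959, 229 counts), 0.917 (0.821 to 0.972, 114 counts) and 0.925 (0.864 to 0.965, 227 counts) across the libraries. A 60-nt extension at a 3′ splice site, at chr13:58392417-58392476, was used less, with PSI values of 0.144 (0.098 to 0.202, 133 counts), 0.161 (0.103 to 0.239, 89 counts) and 0.244 (0.174 to 0.328, 103 counts). It was highest with CWG-cPIP, 0.10 above CUG10 + vehicle (0.014 to 0.191), with an unadjusted exact p of 0.0301 and an adjusted exact p of 1. The 44-nt frame-shifting exon of Hnrnpk ran from 0.943 to 0.982 and the 54-nt exon of its 5′ UTR from 0.126 to 0.267.

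Hnrnpm encodes hnRNP M, which binds GU-rich RNA. A 117-nt stretch at chr17:33666530-33666646 on the minus strand, listed as a retained intron, is coding in 2 transcripts and keeps the frame. Its PSI was 0.449 (0.318 to 0.594, 62 counts), 0.437 (0.272 to 0.630, 36 counts) and 0.517 (0.400 to 0.638, 94 counts) in the 3 libraries, with wide and overlapping intervals. The 3 skipped exons of Hnrnpm, of 45, 53 and 54 nt, ran from 0.911 to 1.000 in all libraries.

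Hnrnpr encodes hnRNP R, an RNA-binding protein of motor and other neurons. Its 2 skipped exons, of 166 and 169 nt, start 3 nt apart near the beginning of the coding sequence and share nearly all reads, so they count as 1 region. The 166-nt form, at chr4:136314090-136314255 on the plus strand, had PSI values of 0.712 (0.428 to 0.928, 27 counts), 0.316 (0.050 to 0.847, 5 counts) and 0.825 (0.603 to 0.960, 49 counts) in library order. The low value in CUG300 + vehicle rested on 5 reads and stayed below the minimum of 20. The other 2 events of Hnrnpr, a 3-nt and a 5-nt splice site extension, had 1 to 28 counts. The 4 Hnrnpr events were the 4 members under the minimum in at least 1 library.

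**Figure D4:**
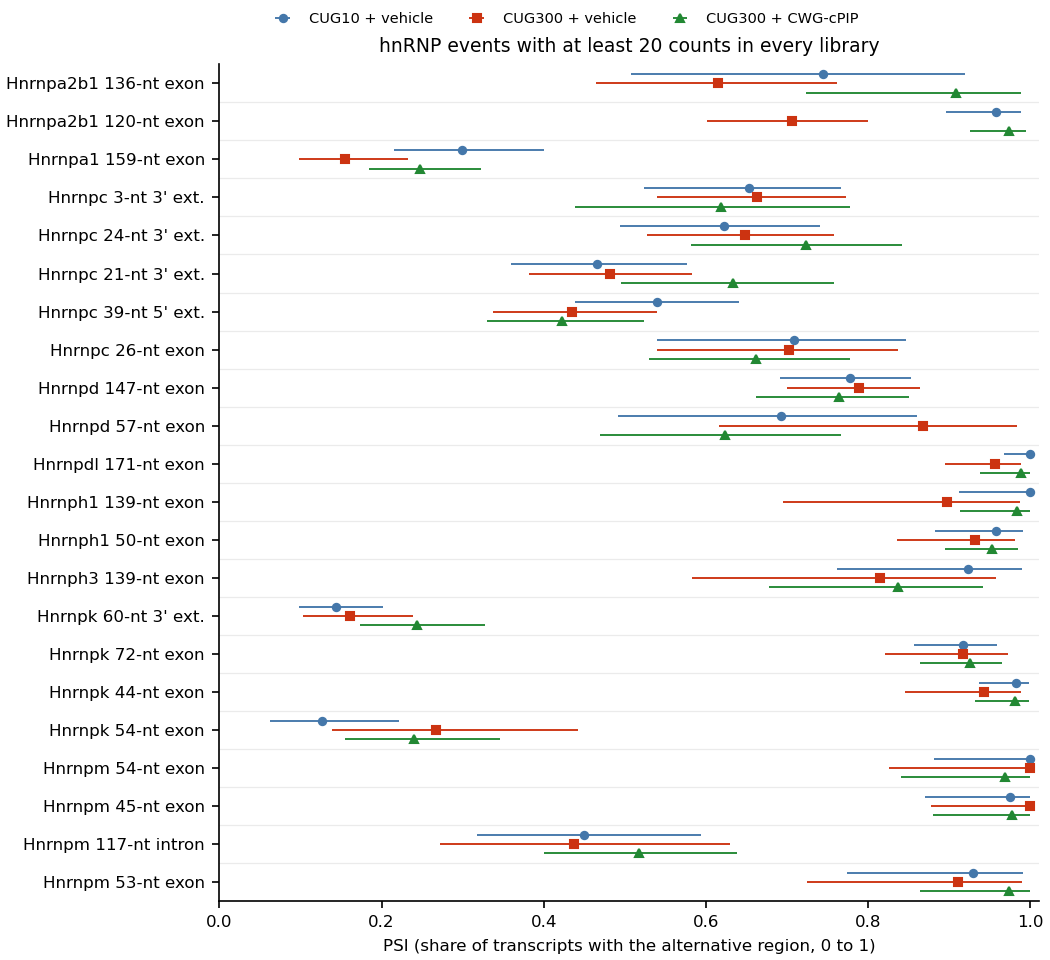
PSI (x axis, 0 to 1) of the 22 hnRNP events with at least 20 counts in every library, with 95% Clopper-Pearson intervals for CUG10 + vehicle (circles), CUG300 + vehicle (squares) and CUG300 + CWG-cPIP (triangles). For the Hnrnpa2b1 120-nt exon the square lies at 0.706, apart from the other 2 libraries; the intervals of most other events overlap.

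Over the 22 events with enough depth, PSI was lowest in CUG300 + vehicle for 11, in CUG300 + CWG-cPIP for 6 and in CUG10 + vehicle for 5. Over all 2833 events of that depth the shares were 43.5%, 28.4% and 27.4%, so the order of the libraries among the members was like that of all events. The median range of PSI over the 3 libraries was 0.090 for the members and 0.052 for all events, and 9 members varied by less than 0.05. In CUG300 + vehicle against CUG10 + vehicle, 13 of 21 members were lower (61.9%, beside 57.7% of all events), with a median absolute difference of 0.027 beside 0.041. In CUG300 + CWG-cPIP against CUG300 + vehicle, 14 of 22 were higher (63.6%, beside 58.8% of all events), with a median absolute difference of 0.042 beside 0.043, and in CUG300 + CWG-cPIP against CUG10 + vehicle 12 were higher (50%, beside 50.5%) and 12 lower.

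Grouped by their place in the transcript, the 4 coding exons whose length is not a multiple of 3 were those of Hnrnph1 (139 nt), Hnrnph3 (139 nt), Hnrnpk (44 nt) and Hnrnpm (53 nt). Skipping of such an exon shifts the frame, which can lead to decay of the mRNA. In the annotation, the transcripts that skip the exon were all marked for nonsense-mediated decay in Hnrnpk only. Hnrnph3 also had a protein-coding transcript of this form, and those of Hnrnph1 and Hnrnpm were of neither class. All 4 were lower in CUG300 + vehicle than in CUG10 + vehicle, by -0.108 to -0.018 with a median of -0.071, and all 4 were higher in CUG300 + CWG-cPIP than in CUG300 + vehicle, by 0.022 to 0.087 with a median of 0.050. None of these single differences passed the exact test, each rested on at most 5 skipping reads in a library, and both counts share the CUG300 + vehicle library. The 4 exons stood at 0.923 to 1.000 in CUG10 + vehicle, which left little or no room for a higher value. Of all events, 57.7% were lower in the first comparison and 58.8% higher in the second, and no share over all frame-shifting exons was computed. Of the 12 coding regions that keep the frame, 6 were higher and 6 lower in CUG300 + vehicle than in CUG10 + vehicle, with a median of 0.005. Some of these lay far lower, such as the Hnrnpa1 exon at 0.299 in CUG10 + vehicle, so the groups differ in starting PSI.

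3 short motifs of splicing factors were searched in the exons on the transcript strand only, namely TAGG for hnRNP A1 and A2/B1, GGGG for hnRNP H and TGCT for MBNL, with overlapping matches counted. The Hnrnpa2b1 120-nt exon held GGGG at 2 overlapping positions and neither TAGG nor TGCT. Of 1980 skipped exons within 20% of its length, 25.8% held GGGG, 12.7% TAGG and 48.1% TGCT. The 139-nt exons of Hnrnph1 and Hnrnph3 each held GGGG at 3 positions and TAGG once, beside 29% and 15.2% of 1775 exons of like length that held them at all. TGCT was found once in the Hnrnph1 exon and at 2 positions in the Hnrnph3 exon, and 53.1% of the exons of like length held it. Only these exact letters were searched, so other forms of a motif were not counted. A match is a description of the letters and not a measured binding site.

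The number of reads over a member's events gave a rough level of its transcript, compared within a gene and across libraries only. Hnrnpr had the widest spread, with 118 (92.4 to 149), 31.7 (18.8 to 50.1) and 246 (207 to 291) event RPM across the libraries, with exact Poisson 95% intervals. Its ratio of CUG300 + vehicle to CUG10 + vehicle was 0.268 (0.151 to 0.455). By that ratio Hnrnpk was next, with 973, 557 and 1001 event RPM and a ratio of 0.572 (0.498 to 0.657). The levels of Hnrnph1 were 374, 257 and 615 event RPM, those of Hnrnph3 116, 72.2 and 141, and those of Hnrnpm 363, 262 and 501. These 3 genes had ratios of 0.688 (0.555 to 0.85), 0.62 (0.411 to 0.923) and 0.724 (0.584 to 0.895), with no interval that held 1. The median of this ratio was 0.716 over the 2653 genes with a mean of at least 20 counts a library. From CUG300 + vehicle to CUG300 + CWG-cPIP the ratios of Hnrnph1, Hnrnph3 and Hnrnpm were 2.39, 1.95 and 1.91, above the 1.8 of Hnrnpk. The median over the same 2653 genes was 1.51 in this comparison.

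For the other 5 members the interval of the ratio of CUG300 + vehicle to CUG10 + vehicle held 1. Hnrnpa2b1 had 453, 396 and 626 event RPM and a ratio of 0.875 (0.731 to 1.05), which was 0.687 with the 120-nt exon alone. From its skipping reads alone, taken per skipping reads of all skipped exons in the library, the ratio was 5.25. Hnrnpa1 had 146, 125 and 214 event RPM, and it was higher with CWG-cPIP than in CUG300 + vehicle by a ratio of 1.71 (1.27 to 2.33). The median over the 2653 genes was 1.51 there. Hnrnpd had 453, 451 and 421 event RPM and a ratio of 0.996 (0.837 to 1.18), and Hnrnpdl had 592, 516 and 507 and a ratio of 0.871 (0.744 to 1.02). Hnrnpc, at 614, 698 and 587, had its highest level in CUG300 + vehicle, with a ratio of 1.14 (0.985 to 1.31) that turned to 0.965 with its deepest event alone. In the same way its ratio of CUG300 + CWG-cPIP to CUG300 + vehicle turned from 0.841 (0.725 to 0.976) to 1.1. Events of a gene can share reads, so these intervals are too narrow for Hnrnpc and Hnrnpr.

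Summed over the 10 members, reads were 4201, 3366 and 4858 event RPM. In CUG300 + vehicle against CUG10 + vehicle, 9 of 10 members had the lower value, and without Ttr in the total it was 8 of 10. For 5 of the 9 the interval lay below 1, a share that was not computed over all genes. Of all 2653 genes with a mean of at least 20 counts a library, 72.4% were lower in this comparison, or 67.5% without Ttr, and the median ratio was 0.716 beside 0.79 for the members. In CUG300 + CWG-cPIP against CUG300 + vehicle, 70.3% of these genes and 7 of 10 members were higher, with median ratios of 1.51 and 1.75. Against CUG10 + vehicle, CUG300 + CWG-cPIP was higher for 59.5% of these genes and 7 of 10 members, with median ratios of 1.09 and 1.3. The summed ratio was 0.801 (0.755 to 0.85) for CUG300 + vehicle against CUG10 + vehicle, 1.44 (1.36 to 1.53) for CUG300 + CWG-cPIP against CUG300 + vehicle and 1.16 (1.1 to 1.22) for CUG300 + CWG-cPIP against CUG10 + vehicle. The same 3 ratios were 0.465, 2.02 and 0.938 for the 7 neuronal markers and 0.834, 1.33 and 1.11 for 4 oligodendrocyte markers. They were 2.21, 0.865 and 1.91 for 3 astrocyte markers, of which Gfap was at 2.7 and the other 2 below 1 in the first comparison. Against the sums of their lists, the oligodendrocyte marker Mag was at 1.3 in the first comparison and 0.725 in the second. The neuronal marker Nrgn was at 0.622 in the second. Ttr alone took 67703 event RPM in CUG300 + vehicle. Without Ttr in the total, the summed hnRNP ratio of CUG300 + vehicle to CUG10 + vehicle was 0.859. From skipping reads of skipped exons alone it was 1.26, which is per skipping reads of all skipped exons and not in event RPM.

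**Figure D5:**
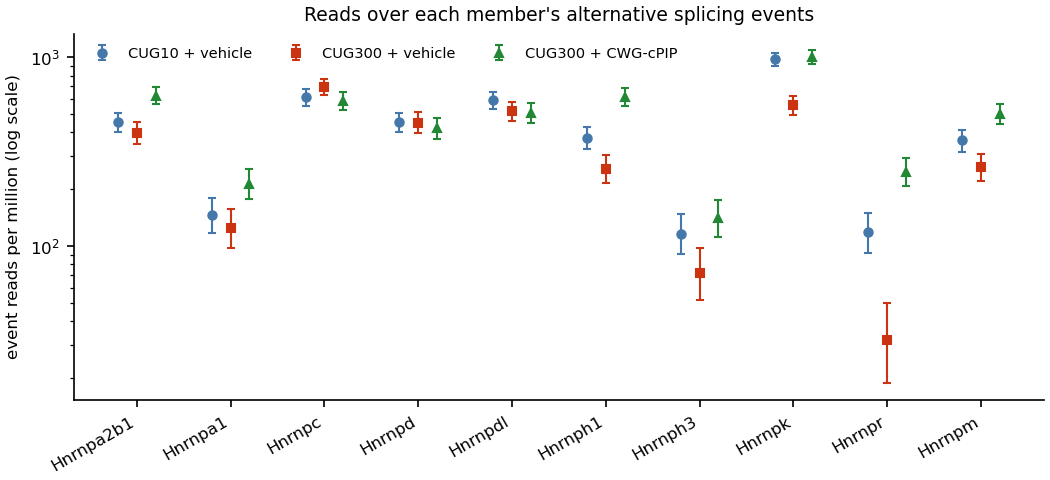
Reads over the alternative splicing events of each hnRNP gene in event RPM (y axis, log scale) in the 3 libraries, with exact Poisson 95% intervals. In 9 of 10 genes the square of CUG300 + vehicle lies below the circle of CUG10 + vehicle, most in Hnrnpr (31.7 against 118). The 31.7 rests on 18 counts, and 72.4% of the 2653 genes with a mean of at least 20 counts a library were also lower.

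Further genes of the same kind were taken as 2 lists. The list of 19 other hnRNP and related genes had 32 events. By size, 2 of its 14 events with enough depth were lower in CUG300 + vehicle than in CUG10 + vehicle (14.3%, beside 9.34% of all events) and none higher. They were a 5′ splice site extension of Hnrnpf, a close relative of Hnrnph1 (0.648 and 0.467 in CUG10 + vehicle and CUG300 + vehicle), and a 93-nt exon of Pcbp2, a relative of Hnrnpk (0.597 and 0.403). In CUG300 + CWG-cPIP the Pcbp2 exon stood at 0.590, near its value in CUG10 + vehicle. The Hnrnpf extension stood at 0.373 there, further from its value in CUG10 + vehicle. No event of this list passed the exact test in any comparison. With CWG-cPIP, 1 of 18 was higher by size than in CUG300 + vehicle (5.56%, beside 11.3%), and against CUG10 + vehicle 2 of 21 were higher and 1 lower (14.3%, beside 8.56%).

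The list of 12 SR protein and Tra2 genes, the other large family known to splice its own transcripts, had 12 events. In CUG300 + vehicle against CUG10 + vehicle 1 of its 10 events with enough depth was higher and 1 lower by size, both in Srsf5 (20%, beside 9.34% of all events). With CWG-cPIP, 2 of 10 were higher and 1 lower than in CUG300 + vehicle (30%, beside 11.3%), and the 90-nt exon of Srsf9 passed the exact test (0.467 against 0.131, adjusted exact p = 0.00636). Its value in CUG10 + vehicle was 0.260. Against CUG10 + vehicle, 1 of 10 was higher with CWG-cPIP (10%, beside 8.56%).

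Among 2233 skipped exons of at least 20 counts in every library, those nearest in PSI to the Hnrnpa2b1 120-nt exon over the 3 libraries were in Cdc123, Pcdh9, Rnpep, Zmym3 and Ric8b. Their Euclidean distances from it were 0.048 to 0.055. The Cdc123 exon, of 123 nt, stood at 0.922, 0.735 and 0.961 in the 3 libraries, and the other 4 exons were at 1.000 in both other libraries and at 0.684 to 0.726 in CUG300 + vehicle. The likeness is over 3 libraries and describes this pattern only.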

How the data were processed

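Directional libraries were made from total RNA. The submitters' processing notes name Trim Galore 0.6.6 for trimming, STAR 2.7.9a with RSEM 1.3.3 for alignment, and the build mm10. These notes also name DESeq2 1.36.0, which was not used here. For each of 3 pairs of libraries, the authors deposited 5 rMATS tables, 1 for each event type, with inclusion and skipping counts of junction and exon body reads. The authors also deposited the inclusion level as a fraction from 0 to 1 and the effective length of each form in nt. The skipping form of 74 nt implies a read setting of 75 nt, while the study's methods state longer reads, and this was not resolved. The tables further hold the authors' own p-value, false discovery rate and inclusion difference, and none of these was used.

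An event was followed across tables by its gene, strand and coordinates, and the counts of a library listed in 2 tables were identical in 14737 of 14737 comparisons. PSI computed from counts and lengths differed from the deposited fraction by at most 0.0005. For each pair, inclusion and skipping counts were compared with a two-sided Fisher's exact test, adjusted by Benjamini-Hochberg within the event type over all listed events. An event was called by size above a PSI difference of 0.15 with at least 20 counts in each library, and by the exact test at an adjusted p under 0.05 with that size. Differences have 95% Newcombe intervals from Wilson intervals. Event RPM are counts divided by the library total over events with counts in all 3 libraries, times 1000000.

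All 18 skipped member exons matched the ends of a GENCODE M21 exon (mm10). Exons were aligned globally in Biopython 1.88 (match 1, mismatch -1, gap opening -2, extension -0.5). Python 3.11.15, SciPy 1.17.1 and pandas 2.3.3 were used. Members and lists were chosen with earlier results of these data known. PSI in all libraries with intervals is given for events called by either rule, events with at least 100 counts in every library and the deepest event of each gene. The Hnrnph1 139-nt and Hnrnpk 60-nt events were added after their values were seen. The sequence of 1 exon is not reported here.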

Additional observations from a re-analysis of the deposited data

How the results depend on the processing

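With 1 mouse for each group no replicate could be left out. No paired analysis was possible because each group has 1 sample. The 3 counts of members called by the exact test (1, 1 and 0) were equal under each of 4 alternatives, namely adjustment over all event types, testing only events with at least 20 counts, inclusion counts scaled to the skipping form length, and no size threshold. For the Hnrnpa2b1 120-nt exon the adjusted exact p ranged from 0.00142 to 0.0171 in CUG300 + vehicle against CUG10 + vehicle and from 3.1e-05 to 0.000262 in CUG300 + CWG-cPIP against CUG300 + vehicle. Counts called by size depended on the thresholds. In CUG300 + vehicle against CUG10 + vehicle the 2 calls became 5 with no minimum of counts, 8 at a size threshold of 0.10 and 1 at 0.20. In CUG300 + CWG-cPIP against CUG300 + vehicle the 4 became 7 with no minimum and 1 with PSI from raw counts. In CUG300 + CWG-cPIP against CUG10 + vehicle the 2 became 8 at 0.10 and 0 at 0.20. With PSI from raw counts the first comparison again had 2 calls, but these were the Hnrnpa1 159-nt exon and the Hnrnpk 54-nt exon, and the Hnrnpa2b1 exon was not among them. The summed ratio of event reads moved from 0.801 to 0.87 over events listed in all 3 pairs, to 0.859 without Ttr and to 1.26 from skipping counts of skipped exons alone for CUG300 + vehicle against CUG10 + vehicle. It moved from 1.44 to 1.32, 1.35 and 0.998 for CUG300 + CWG-cPIP against CUG300 + vehicle, and from 1.16 to 1.26 with skipping counts alone for CUG300 + CWG-cPIP against CUG10 + vehicle. Skipping counts hold few reads of most exons, and the cause of these shifts was not tested. The ratios from skipping counts were taken per skipping counts of all skipped exons in the library, not per event reads. In the first 2 comparisons the direction of the summed ratio was not kept under this setting. The setting changes both the reads counted and the total they are divided by, and the 2 were not separated. For single genes, 28 of 118 alternative ratios lay outside the interval of the main value, all of them from skipping counts alone or from the deepest event alone. Depth limited most members, and the 95% interval of the PSI difference held 0 for 21 of 24 listed members in CUG300 + vehicle against CUG10 + vehicle, 22 of 26 in CUG300 + CWG-cPIP against CUG300 + vehicle and 25 of 26 in CUG300 + CWG-cPIP against CUG10 + vehicle.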
